A study of Schmidtea mediterranea with 5 samples.

Results

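The gene described here is *bmp4*, the planarian member of the bone morphogenetic protein family that the study ties to contig dd_Smed_v6_17402_0. It is 1 of the 28040 contigs counted. The levels below come from droplet-based single-cell RNA sequencing (10x v3) of the planarian *Schmidtea mediterranea*, asexual strain CIW4. Tissue came from the post-pharyngeal region of about 30 large animals per library, pooled, and each library was 1 run. There were 2 libraries of anterior-facing wounds at 18 hours post amputation (hpa), of which replicate 1 had no RNAi and replicate 2 was fed control dsRNA against *unc-22* in 4 feedings, 1 library of posterior-facing wounds at 18 hpa, 1 of anterior-facing wounds at 6 hpa and 1 of fragments taken at 0 hpa, the last 3 without RNAi. The sample labels give 18 hpa where the study's methods give 16 hpa, and the labels are followed here. All cells were sorted as X-insensitive, that is, from the part of the DNA-content profile without dividing stem cells. Cells of the 6 hpa library were sorted as calcein medium and high, those of the other 4 as propidium iodide low, and the effects of time and of sort at 6 hpa cannot be told apart.

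Bone morphogenetic proteins are secreted ligands of the TGF-beta family. They bind serine/threonine kinase receptors at the cell surface, which pass the signal to the nucleus through Smad proteins, and secreted inhibitors such as Noggin hold the ligand away from its receptor. In planarians *bmp4* patterns the dorsal-ventral axis, and body-wall muscle is known as the tissue in which many patterning genes of this animal are transcribed.

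Barcodes above a UMI threshold of their library and with 200 to 2500 genes were called cells. UMIs (unique molecular identifiers) count captured RNA molecules. This gave 23632 cells, with 3560 to 6827 per library, from libraries of 21746895 to 37981205 UMIs. The median depth was 1738 UMIs per cell at 6 hpa and between 3671 and 4414 UMIs in the other 4 libraries. The cells formed 29 clusters, made without *bmp4* and *equinox*, and 19 of them were named after marker contigs. Part of the naming rule was chosen after *bmp4* counts of clusters had been seen. The 6 classes were epidermal lineage-like, muscle-like, neoblast-like, neuron-like, parenchyma-like and pharynx-like, and 27.4% of cells stayed unnamed. Over pairs of libraries, 53 cell barcodes were shared, against 32.4 expected from random draws of the barcode list.

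*bmp4* was a rare transcript. In all it gave 220 UMIs among the 161949169 of the 5 libraries, and 113 called cells had at least 1. Of these 113 cells, 107 were muscle-like (94.7%, exact 95% interval 88.8 to 98.0%). The share was 58.4% when markers had to stand 2-fold over all other cells, a naming under which the largest of the 3 muscle-like clusters stayed unnamed. The muscle-like class was made of 2266 cells, 9.59% of all cells.

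The label of the class was checked against its 12 muscle markers. Of these, 9 were over 2-fold higher in muscle-like cells than in all other cells. They included contigs that the study's annotation table names COL2A1, a fibrillar collagen (847 against 1.79 CPM, the contig's UMIs scaled to 1000000 UMIs of the same cells), LDB3, a Z-disc protein (28.8 against 0.050 CPM), and ACTN2, the Z-disc actin crosslinker alpha-actinin (1.78 against 0.050 CPM). The contig named ATP2A2, a sarcoplasmic reticulum calcium pump, was at 223 against 165 CPM. The contig named HSPG2, a basement membrane proteoglycan (7.55 against 151 CPM), and dd_Smed_v6_1706_0 (1.65 against 117 CPM) were lower in muscle-like cells. Other marker lists were looked at beside them. The 6 intestine markers summed to 1237 CPM in muscle-like cells against 101 CPM in all other cells, of which dd_Smed_v6_1161_0 alone made 1229 against 3.26 CPM, while the other 5 had 0.686 to 3.84 CPM in muscle-like cells and were lower there than in all other cells. The 15 neuron markers summed to 308 against 178 CPM, with 5 of them higher in muscle-like cells, led by dd_Smed_v6_10156_0 (87.1 against 7.95 CPM), and 2 at 0 UMIs. The part of these contigs in the naming was not tested. The marker lists were used to name the clusters, so that these levels are a description. Only variable contigs entered the clustering, and which of these markers were among them is not given here. The dividing neoblasts, on the other hand, should be outside the gate, and the neoblast-like class rests on marker contigs alone.

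In muscle-like cells *bmp4* had 27 UMIs in 19 of 410 cells at 0 hpa. At 6 hpa it had 1 UMI in 1 of 263 cells. At 18 hpa, anterior-facing replicate 1 had 49 UMIs in 28 of 470 cells, anterior-facing replicate 2 had 48 UMIs in 33 of 640 cells, and the posterior-facing library had 47 UMIs in 26 of 483 cells. The 6 hpa library therefore stood below the other 4, which were close to each other.

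The share of muscle-like cells with a *bmp4* UMI was 4.63% at 0 hpa (exact 95% binomial interval 2.81 to 7.14%) and 0.380% at 6 hpa (0.00963 to 2.10%). It was 5.96% (3.99 to 8.50%) in replicate 1 and 5.16% (3.58 to 7.17%) in replicate 2 of the 18 hpa anterior-facing wounds, and 5.38% (3.55 to 7.79%) in the 18 hpa posterior-facing library. All intervals given here cover counting error only. The cells differed in depth, with medians of 2689.5 UMIs at 0 hpa, 1892 UMIs at 6 hpa and, at 18 hpa, 4257 and 2939 UMIs in anterior-facing replicates 1 and 2 and 3576 UMIs in the posterior-facing library.

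When each cell was thinned to 500 UMIs, the expected share was 1.12% at 0 hpa and 0.139% at 6 hpa. At 18 hpa it was 1.08% and 1.16% in anterior-facing replicates 1 and 2 and 1.21% in the posterior-facing library. No muscle-like cell was shallower than this. At 1000 UMIs, where 215 of the 263 cells of 6 hpa were deep enough and all others, the shares were 2.11%, 0.341%, 1.97%, 2.17% and 2.22% in the same order. The 0 and 18 hpa libraries thus lay closer to each other at equal depth than at full depth, and the 6 hpa library stayed below them.

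All other cells held 9 *bmp4* UMIs in 6 of 21366 cells. The level in muscle-like cells was 23.2 CPM at 0 hpa, 1.90 CPM at 6 hpa, and 24.8, 25.3 and 27.3 CPM in the 18 hpa libraries (anterior-facing replicates 1 and 2, then posterior-facing), against 0.0535, 0, 0.507, 0.0432 and 0 CPM in all other cells in that order. Over libraries, the mean was 20.5 ± 10.5 CPM in muscle-like cells and 0.121 ± 0.217 CPM in all other cells (SD, n = 5). Without the 6 hpa library it was 25.1 ± 1.70 CPM and 0.151 ± 0.238 CPM (SD, n = 4). The groups did not overlap.

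In edgeR (quasi-likelihood, UMIs summed per library, library as a block) the muscle-like cells were higher by a log2 fold change of 7.56, with a standard error of 0.57 and an adjusted p of 1.75e-06 (Benjamini-Hochberg, 12347 contigs). Of these contigs, 18.0% were called higher in muscle-like cells and 26.3% lower. *bmp4* ranked 77th by fold change. Since part of the rule that named the muscle-like class was chosen with *bmp4* counts of clusters seen, the fold change and p are not independent of that choice. Without the minimum share of leading markers, the class at 0 hpa held the same 27 *bmp4* UMIs among 1860480 UMIs, against 1165094 UMIs with it. Muscle-like cells were higher in 5 of 5 libraries, at 6 hpa by 1 UMI against 0, for which an exact two-sided test over sign flips gives p = 0.0625, the lowest value 5 libraries can reach. The usual filter on low counts left *bmp4* out, because of the single UMI at 6 hpa, and it was put back for this fit. With the 6 hpa library left out it passed that filter and had a log2 fold change of 7.62 (adjusted p = 4.98e-06, edgeR). It was 9.05 without replicate 1 of the 18 hpa anterior-facing wounds, which held 7 of the 9 UMIs outside muscle (adjusted p = 1.03e-06, edgeR), and 4.90 with the stricter marker naming (adjusted p = 6.73e-07, edgeR).

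**Figure D1:**
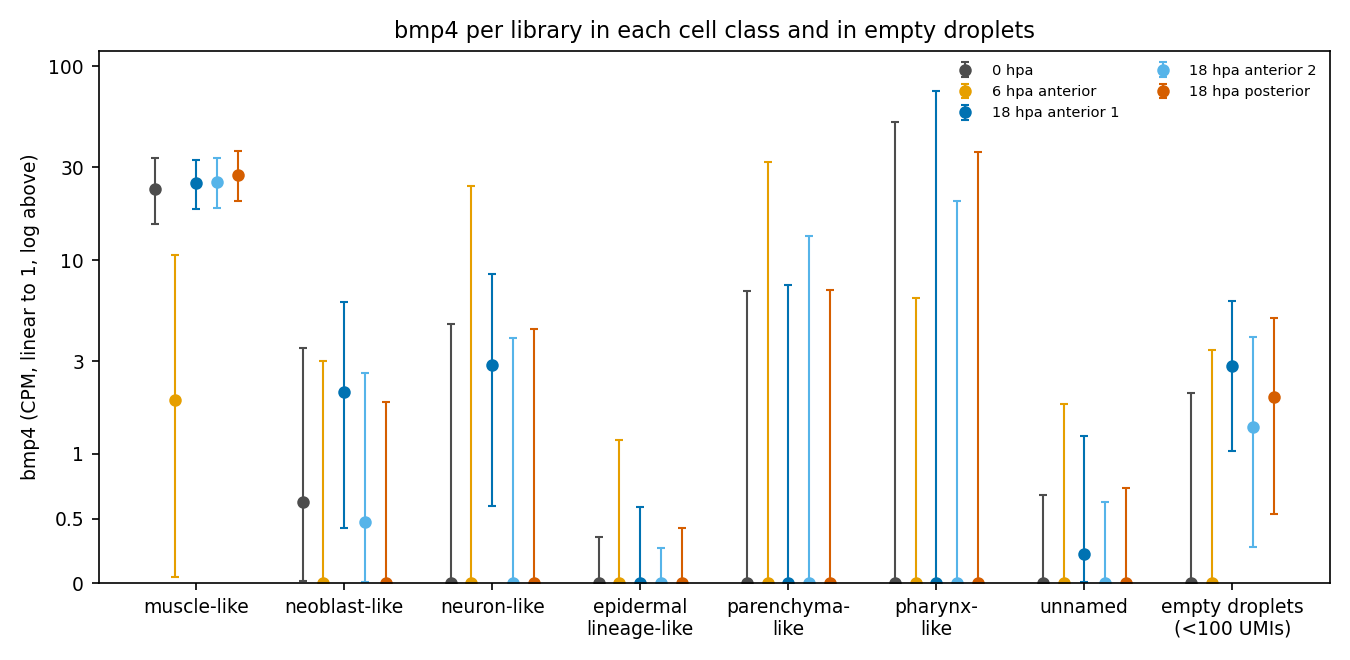
Level of *bmp4* in CPM (vertical axis, linear up to 1 and logarithmic above) in each cell class and in empty droplets, with 1 point per library and exact 95% Poisson intervals. Muscle-like cells of 4 libraries sit between 23.2 and 27.3 CPM and those of the 6 hpa library at 1.90 CPM, while no other class exceeds 2.88 CPM in any library.

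Ordered by the level over all libraries, muscle-like cells came first (23.6 CPM, exact 95% Poisson interval 20.2 to 27.4). Neuron-like cells followed with 0.801 CPM (0.165 to 2.34), from 3 UMIs in 2 of 1563 cells, and neoblast-like cells with 0.598 CPM (0.194 to 1.40), from 5 UMIs in 3 of 2709 cells. The intervals of these 2 classes overlap almost fully. Unnamed cells had 1 UMI in 6464 cells (0.0438 CPM, 0.00111 to 0.244), and their interval overlaps both. Of the neoblast-like UMIs, 3 came from 1 cell of cluster 25. That cluster led in 3 of 8 neoblast markers and in 9 of 9 markers of ciliated cells, a list not used for naming.

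No *bmp4* UMI was found in epidermal lineage-like cells, the covering of the animal and its progenitors. This was 0 of 9564 cells, which allows a share of up to 0.0314% (3 counts over the class). These cells were deeper than muscle-like cells, with medians of 4557.5 against 3126 UMIs, and serve as the background. Set against this limit, *bmp4* was at least 331-fold higher in muscle-like cells, per UMI. Parenchyma-like cells had 0 of 616 (up to 0.487%) and pharynx-like cells 0 of 450 (up to 0.667%). Of the pharynx-like cells 322 came from the 6 hpa library, where muscle-like cells were low too.

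The 6 cells with *bmp4* outside the muscle-like class were looked at one by one. A muscle-like cell had a median of 0.925% of its UMIs in the muscle markers. A neuron-like cell of 18 hpa anterior-facing replicate 1 with 1 *bmp4* UMI had 10 muscle marker UMIs (0.236%), more than 99.4% of the cells of its cluster. The other neuron-like cell, of the same library with 2 *bmp4* UMIs, had 3 muscle marker UMIs (0.143%), above 94.8% of its cluster.

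A neoblast-like cell of 18 hpa anterior-facing replicate 2 with 1 *bmp4* UMI had 2 muscle marker UMIs (0.131%), above 97.9% of its cluster. A neoblast-like cell of replicate 1 with 3 *bmp4* UMIs had 3 (0.0601%), above 77.5% of its cluster, which also led in 9 of 9 markers of ciliated cells. The neoblast-like cell of 0 hpa and the unnamed cell of 18 hpa anterior-facing replicate 1, with 1 *bmp4* UMI each, had 0. Of the 6 cells, 4 therefore carried muscle marker UMIs, and all 4 stood above the median of their own cluster. The markers include the contig named HSPG2 (7.55 CPM in muscle-like against 151 CPM in all other cells) and dd_Smed_v6_1706_0 (1.65 against 117 CPM). The marker UMIs of these cells were not split by contig, so they are not shown to be muscle RNA. Whether the 6 cells are droplets that held more than 1 cell was not tested, since a doublet caller (Scrublet) marked 0.220% of all cells and cannot be said to have worked.

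Among the 107 muscle-like cells with *bmp4*, 72 had a single UMI, 22 had 2, 7 had 3 and 6 had 4 or more. The highest count was 7 UMIs, in a cell of 18 hpa anterior-facing replicate 1. Cells with *bmp4* had a median depth of 3505 UMIs and cells without it 3107 UMIs. Their muscle markers took a median of 1.0% and 0.923% of UMIs over all libraries. Within libraries, muscle content was 2.19% in cells with *bmp4* and 1.23% in cells without it at 0 hpa, but 1.14% and 1.32% in replicate 1, 0.648% and 0.684% in replicate 2 of the 18 hpa anterior-facing wounds, and 1.02% and 0.996% in the 18 hpa posterior-facing library. The single cell with *bmp4* at 6 hpa had 1.17%, against a median of 0.430% in those without it.

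The share of cells with *bmp4* followed depth. When the muscle-like cells of each library were split into 3 groups of nearly equal size by UMIs, it was 3.70% in the lowest group (28 of 756 cells, exact 95% interval 2.47 to 5.31%), 4.38% in the middle group (33 cells, 3.04 to 6.10%) and 6.08% in the highest group (46 of 757, 4.48 to 8.02%). Thinned to 500 UMIs, the shares were 0.896%, 1.13% and 1.06%, and the order was lost. The level per UMI was 19.8, 28.5 and 21.95 CPM, with overlapping intervals.

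**Figure D2:**
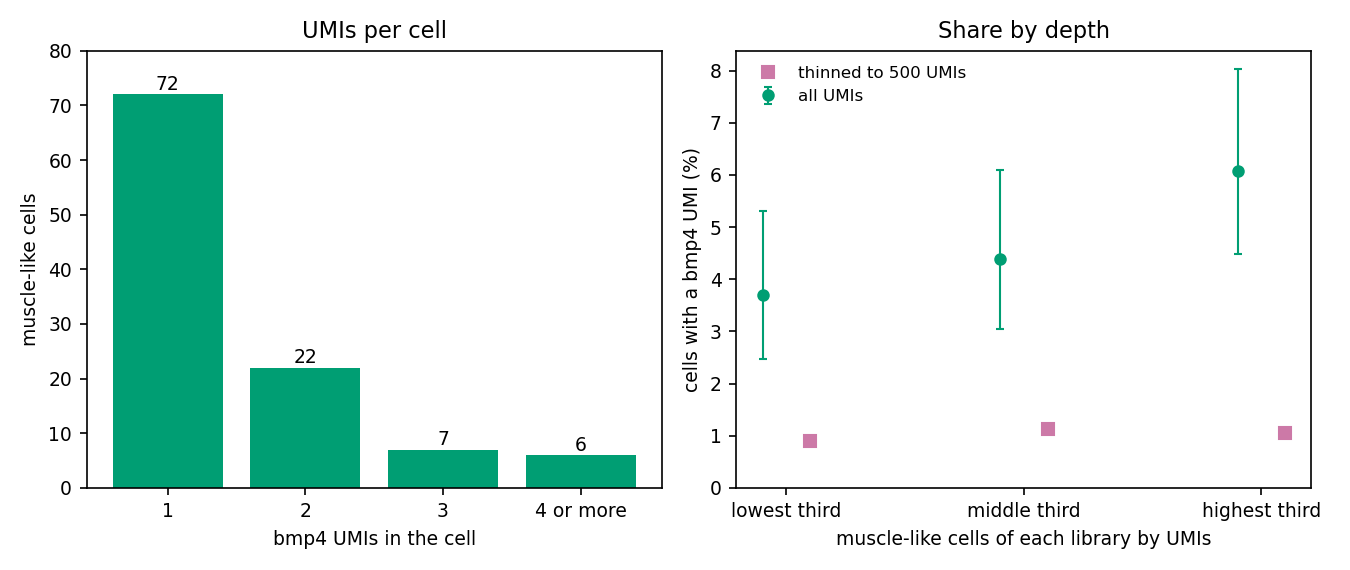
Left, number of muscle-like cells (vertical axis) by their *bmp4* UMIs, where 72 of 107 cells have 1 UMI. Right, percentage of muscle-like cells with a *bmp4* UMI in 3 depth groups, at all UMIs (circles, exact 95% binomial intervals) and thinned to 500 UMIs per cell (squares), where the climb from 3.70 to 6.08% is not seen after thinning.

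Muscle-like cells fell into 3 clusters, numbered 10, 11 and 23 by size, and *bmp4* was found in each. Over all libraries it was at 22.7 CPM in cluster 10 (exact 95% interval 17.6 to 28.8, 41 of 936 cells), 17.4 CPM in cluster 11 (13.0 to 22.7, 35 of 914 cells) and 41.0 CPM in cluster 23 (30.5 to 53.9, 31 of 416 cells). In CPM, the interval of cluster 23 lies above those of clusters 10 and 11, which overlap each other. These intervals count each UMI as independent, also where 1 cell held several. For the share of cells with *bmp4*, the exact 95% interval of cluster 23 (5.12 to 10.4%) overlaps both others. Those were 3.16 to 5.90% in cluster 10 and 2.68 to 5.29% in cluster 11. All of these values pool libraries that hold the clusters in different proportions. In the 18 hpa posterior-facing library, cluster 23 had the lowest level of the 3 (18.0 CPM).

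Cluster 23 was the richest in muscle markers, with 25251 CPM summed over the 12 contigs, against 12919 CPM in cluster 11 and 5161 CPM in cluster 10. Its leading contigs included the one named COL2A1 (3528 CPM, against 526 in cluster 11 and 60.8 in cluster 10). Cluster 10 had 3513 CPM of the muscle marker dd_Smed_v6_2337_0 but little collagen, and it was the highest of the 3 in the neoblast list (8 of 8 contigs detected, 1425 CPM summed, against 455 in cluster 11 and 162 in cluster 23). Most of that was the neoblast marker dd_Smed_v6_659_0, at 1090 CPM. In the neoblast-like clusters this marker had 523 to 2430 CPM, so that cluster 10 lay within their range. Cluster 10 held 41 of the 107 muscle-like cells with *bmp4*. The *bmp4* level ran in the order of the muscle marker sums, from cluster 10 through 11 to 23, at 0 hpa and in replicate 2 of the 18 hpa anterior-facing wounds, and not in replicate 1 or in the posterior-facing library.

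A high sum of the muscle markers did not by itself come with *bmp4*. Unnamed cluster 29 had 17395 CPM of the 12 contigs and no *bmp4* UMI in 143 cells (up to 2.10%), and its leading contigs included dd_Smed_v6_1706_0, one of the 2 markers that were lower in muscle-like cells. Unnamed cluster 5 had 2659 CPM, was led by the contig named HSPG2, and had no *bmp4* UMI in 1176 cells (up to 0.255%). In both, 2 or 3 of the 12 markers led, against 5 to 8 in the muscle-like clusters.

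The clusters were spread unevenly over libraries. Cluster 10 held 18.5% of muscle-like cells at 0 hpa and 57.0% at 6 hpa. At 18 hpa it held 41.9% and 50.6% in anterior-facing replicates 1 and 2, and 39.1% in the posterior-facing library. Cluster 23 made up 35.9% at 0 hpa, 16.3% at 6 hpa, and 16.8%, 12.0% and 14.5% in the same 18 hpa libraries.

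In cluster 10, *bmp4* was at 9.40 CPM at 0 hpa (exact 95% interval 1.14 to 33.9, 2 UMIs in 1 of 76 cells). At 6 hpa it was found in 0 of 150 cells, which allows up to 2.00%. At 18 hpa it was at 27.7 CPM (17.6 to 41.6) and 17.7 CPM (10.3 to 28.3) in anterior-facing replicates 1 and 2 and at 38.4 CPM (25.1 to 56.3) in the posterior-facing library. The point values were higher at 18 hpa than at 0 hpa, but the intervals overlap.

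Cluster 11 varied less among the libraries other than 6 hpa. It had 16.3 CPM at 0 hpa (7.47 to 31.0), 0 of 70 cells at 6 hpa (up to 4.29%), 15.6 CPM (8.31 to 26.7) and 19.4 CPM (10.6 to 32.5) in anterior-facing replicates 1 and 2, and 20.7 CPM (12.0 to 33.1) in the posterior-facing library.

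Cluster 23 had 39.9 CPM at 0 hpa (22.8 to 64.7) and 10.8 CPM at 6 hpa (0.274 to 60.3), from the only *bmp4* UMI of that library. At 18 hpa it had 41.7 CPM (22.2 to 71.4) and 78.4 CPM (45.7 to 126) in anterior-facing replicates 1 and 2 and 18.0 CPM (4.90 to 46.1, 4 UMIs) in the posterior-facing library. The order of wound sides in cluster 23 was the opposite of that in cluster 10, where the posterior-facing library was highest, and neither difference was tested.

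**Figure D3:**
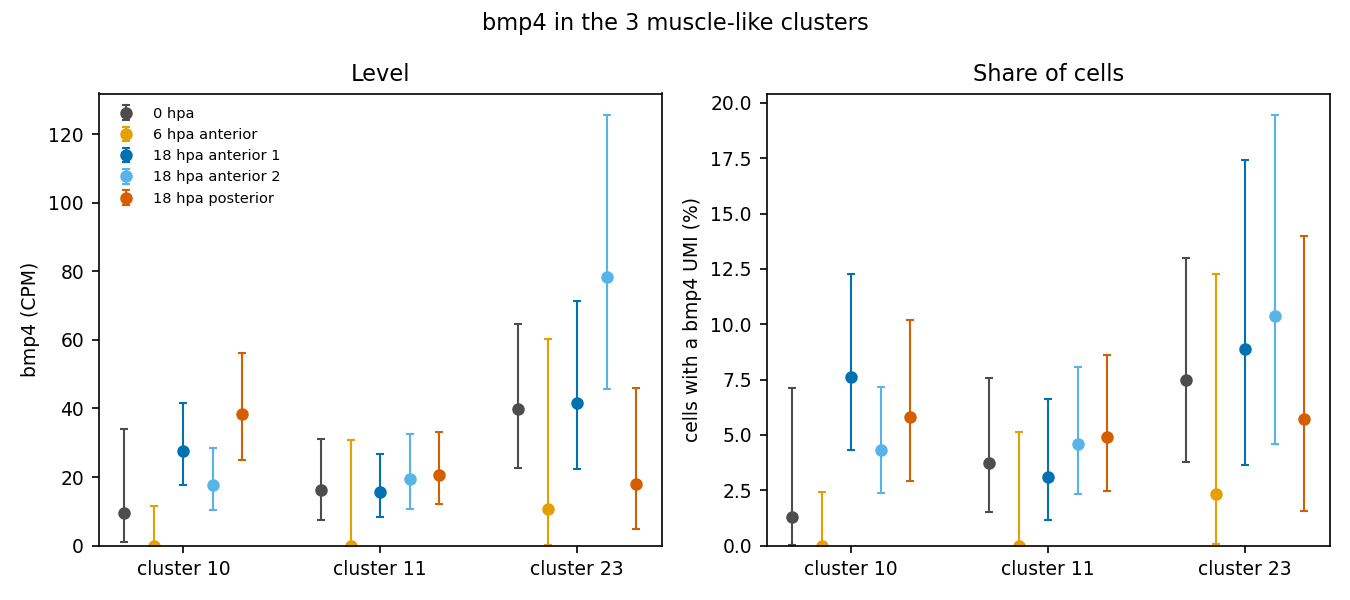
Level of *bmp4* in CPM (left) and percentage of cells with a *bmp4* UMI (right) in the 3 muscle-like clusters, 1 point per library with exact 95% intervals. Cluster 23 is highest in the 0 hpa library and in both 18 hpa anterior-facing libraries, with 39.9, 41.7 and 78.4 CPM.

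Time points and wound sides were compared within muscle-like cells. With 1 library each, other than the 18 hpa anterior-facing wounds, no test was made, and the intervals of ratios (exact, conditional on the total) cover counting error only. The level at 6 hpa was 0.0818 times that at 0 hpa (95% interval 0.00200 to 0.496). At the 0 hpa level, 12.2 UMIs would be expected in the muscle-like cells of the 6 hpa library, against 1 observed. When each of the 3 clusters was given its own 0 hpa level, 8.60 UMIs would be expected. The 0 hpa level rests on 27 UMIs in 19 cells, and that of cluster 10 on 2 UMIs in 1 of 76 cells. No interval was computed for these expected counts.

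The low value at 6 hpa came with other differences of that library. Muscle markers summed to 6207 CPM in its muscle-like cells, against 8285 to 15145 CPM in the other 4 libraries, and the neoblast list to 1668 CPM (8 of 8 contigs), against 427 to 909 CPM. In its cluster 10 the neoblast list summed to 2574 CPM and the muscle list to 2302 CPM. Barcodes from 100 UMIs to the cell threshold held 48.0% of its UMIs, against 1.79 to 5.96% in the other 4 libraries. The study also states that the cells of this library were of lower quality. Per UMI of the muscle markers, the ratio of 6 hpa over 0 hpa was 0.197 (0.00482 to 1.20). Without cluster 10 it was 0.180 (0.00438 to 1.10). The intervals of both reach past 1. The part of depth, sort and cell make-up in the 6 hpa value was not tested.

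At 18 hpa, both anterior-facing libraries together were at 1.08 times the 0 hpa level (0.699 to 1.72), and the posterior-facing library at 1.18 times (0.719 to 1.97). Anterior-facing over posterior-facing wounds gave 0.917 (0.641 to 1.33). Replicate 2 of the anterior-facing wounds, from dsRNA-fed animals, was at 1.02 times replicate 1 (0.670 to 1.55). None of these 4 ratios was distinguishable from 1 at this depth, and changes within their intervals could not have been seen. With each muscle-like cluster at its own 0 hpa level, 33.8 and 29.5 UMIs would be expected in anterior-facing replicates 1 and 2. For the posterior-facing library it would be 28.7 UMIs. Observed were 49, 48 and 47 UMIs in the same order. The 0 hpa level of cluster 10 rests on 2 UMIs in 1 cell, and these differences were not tested.

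The last pair shows how much the scale matters. Replicate 2 over replicate 1 was 1.86 (1.22 to 2.83) per UMI of the muscle markers, whose sums were 8285 CPM in replicate 2 and 15145 CPM in replicate 1, and 0.552 (0.368 to 0.824) in CPM of all called cells, where muscle-like cells made up 9.37% of replicate 2 and 13.2% of replicate 1. In CPM of all called cells the 18 hpa anterior-facing libraries were also at 1.82 times the 0 hpa library (1.19 to 2.87), with muscle-like cells at 8.04% of the 0 hpa cells. In such whole-library levels, more muscle-like cells and more *bmp4* per cell cannot be told apart.

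Droplets with no cell give the level of free RNA. All called cells together had 1.41 CPM at 0 hpa, 0.128 at 6 hpa, 3.55 and 1.96 in replicates 1 and 2 of the 18 hpa anterior-facing wounds, and 2.49 in the 18 hpa posterior-facing library. Barcodes under 100 UMIs held 0 *bmp4* UMIs at 0 hpa (of 1789883 UMIs, which allows up to 1.68 CPM) and 0 at 6 hpa (up to 2.78 CPM). At 18 hpa they held 6 UMIs (2.82 CPM, exact 95% interval 1.04 to 6.15) and 3 UMIs (1.37 CPM, 0.283 to 4.00) in anterior-facing replicates 1 and 2, and 4 UMIs (1.96 CPM, 0.534 to 5.01) in the posterior-facing library.

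Called cells and empty droplets could not be separated. In edgeR, the log2 fold change of called cells over empty droplets was 0.52, with an adjusted p of 0.42 (standard error 0.45). Of the 12989 contigs in this fit, 13.5% were called higher and 12.7% lower in called cells. At 0 and 6 hpa the empty droplets were at 0, with limits above the level of the called cells, so that these libraries show no direction. In the 3 libraries of 18 hpa called cells had the higher value, with overlapping intervals. With empty droplets taken from 10 to 99 UMIs it was 1.31 (adjusted p = 0.11, edgeR), and with every barcode of at least 1000 UMIs taken as a cell it was -0.11 (adjusted p = 0.90, edgeR).

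Muscle-like cells, in contrast, stood at 23.6 CPM against 1.41 CPM in the empty droplets of all libraries. All other called cells, at 0.112 CPM (exact 95% interval 0.0514 to 0.213), lay below the empty droplets (0.750 to 2.41). Per 1000000 UMIs of the muscle markers, *bmp4* gave 1994 UMIs in muscle-like cells, 1388 (1193 to 1605) in all called cells and 1057 (563 to 1807) in empty droplets. The intervals of called cells and empty droplets overlap, so that the proportion of *bmp4* to the muscle markers was not distinguishable between cells and free RNA at this depth. In all other cells the markers summed to 552 CPM, with ATP2A2 at 165, HSPG2 at 151 and dd_Smed_v6_1706_0 at 117 CPM. Their sum therefore does not count muscle RNA alone. The 9564 epidermal lineage-like cells, with 42144055 UMIs, had no *bmp4* UMI.

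Other contigs of the TGF-beta pathway were taken from the part of the study's annotation table that could be read, which names 4 (the pairing of these names with contigs is in doubt, since another table of the study names the same contigs otherwise), and *equinox*, the gene for a predicted secreted protein that the study is about, was added. Of these 5, 1 was called higher and 2 lower in muscle-like cells than in all other cells, against 18.0% and 26.3% of all contigs tested.

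The highest was dd_Smed_v6_10469_0, named NOG after the secreted BMP inhibitor Noggin. In muscle-like cells it had 253 CPM at 0 hpa, 60.7 at 6 hpa, 169 and 136 in anterior-facing replicates 1 and 2 of 18 hpa, and 230 at 18 hpa posterior-facing. In all other cells of these libraries it stayed between 0.827 and 2.25 CPM. The groups did not overlap, and edgeR gave a log2 fold change of 6.81 with an adjusted p of 9.29e-10 (standard error 0.15). Its cluster levels were 109 CPM in cluster 10, 201 in cluster 11 and 301 in cluster 23, and as with *bmp4* the 6 hpa library was the lowest.

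This inhibitor-named contig was found in 599 of the 2266 muscle-like cells (26.4%), against 107 with *bmp4*. A UMI of both was found in 20 cells, of which 5 were from 0 hpa, none from 6 hpa, 7 and 5 from anterior-facing replicates 1 and 2 and 3 from the posterior-facing library at 18 hpa.

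The second NOG contig, dd_Smed_v6_10386_0, differed in its distribution. It was at 6.17 CPM in muscle-like cells and 6.98 CPM in all other cells (log2 fold change -0.24, standard error 0.29, adjusted p = 0.55, edgeR). In the named classes it was highest in parenchyma-like cells (16.9 CPM), and the unnamed cells had 21.9 CPM, 500 of its 604 UMIs. Its comparison therefore turned with how the unnamed clusters were treated: without them and without the 6 hpa library the log2 fold change was 2.80 (adjusted p = 0.00048, edgeR). It shared a cell with *bmp4* in 1 muscle-like cell.

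The contig named SKI, after a nuclear repressor of Smad-driven transcription, was detected broadly. It was at 45.1 CPM in muscle-like cells against 31.3 CPM in all other cells (log2 fold change 0.49, standard error 0.18, adjusted p = 0.054, edgeR), and its highest class was neuron-like (318 CPM), followed by neoblast-like (101 CPM). The difference missed the threshold, and 6 of 19 alternative settings put it past the threshold in the same direction. It shared 12 muscle-like cells with *bmp4*.

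The contig named WFIKKN2, after a secreted binder of myostatin-type ligands in mammals, had no UMI in the 2266 muscle-like cells (up to 0.132% of cells). In all other cells it had 108 UMIs, of which 85 lay in neuron-like cells (22.7 CPM). Its level in all other cells was 3.28-fold over the limit that 3 counts set in muscle-like cells. The contig was called lower in muscle-like cells (adjusted p = 0.018, edgeR). It had been left out by the filter on low counts, like *bmp4*, and the adjusted p was 0.082 with DESeq2 and 0.076 with no library block (edgeR).

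*equinox* (dd_Smed_v6_20318_0) went the other way from *bmp4*. In muscle-like cells it had 0 CPM at 0 and 6 hpa, 1.52 and 3.68 CPM in anterior-facing replicates 1 and 2 of 18 hpa, and 0.581 CPM at 18 hpa posterior-facing, while all other cells had 2.35, 8.96, 9.63, 16.2 and 6.48 CPM (log2 fold change -2.71, standard error 0.39, adjusted p = 0.00023, edgeR). A cell with UMIs of both genes was seen once among muscle-like cells, in the 18 hpa posterior-facing library.

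**Figure D4:**
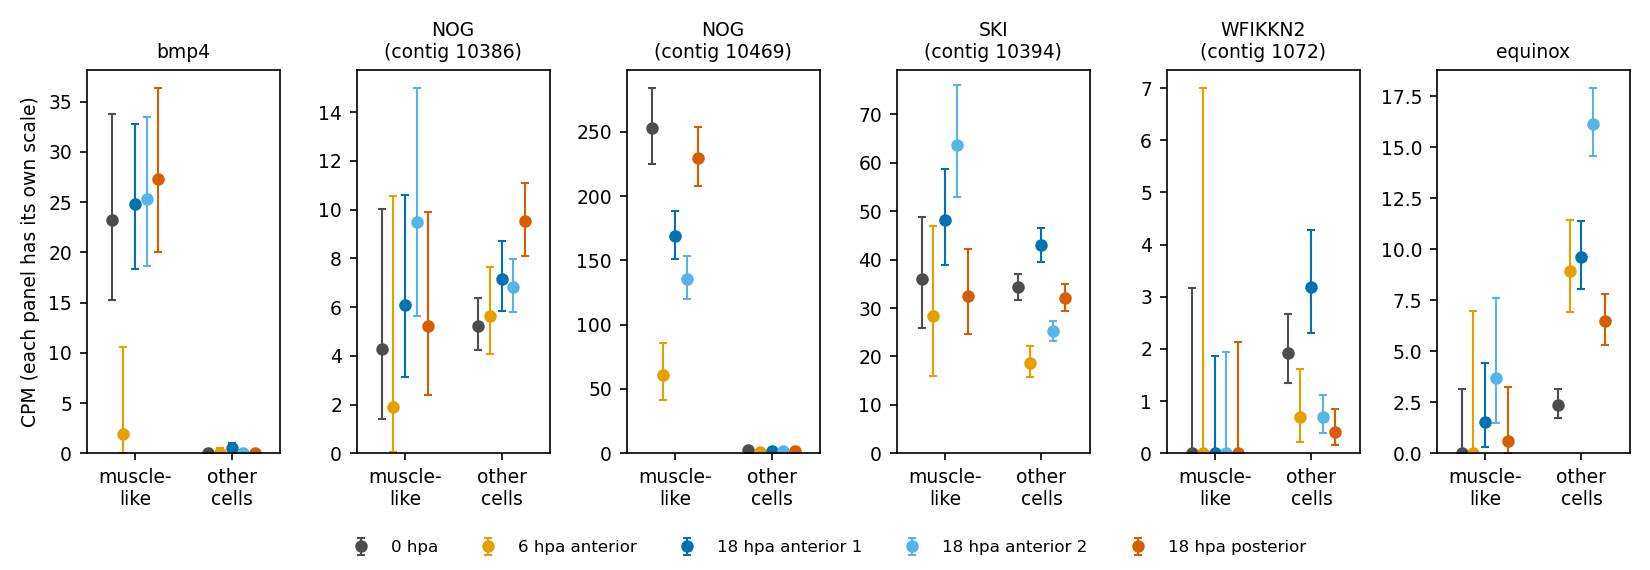
Level in CPM of *bmp4*, 4 TGF-beta pathway contigs and *equinox* in muscle-like cells (left of each panel) and all other cells (right), 1 point per library with exact 95% Poisson intervals and a scale of its own in each panel. *bmp4* and the NOG contig dd_Smed_v6_10469_0 are higher in muscle-like cells in every library, for *bmp4* at 6 hpa by 1 UMI against 0 and with overlapping intervals, while the NOG contig dd_Smed_v6_10386_0 overlaps between them.

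The contigs whose pattern was most like that of *bmp4* were then found. The measure was Pearson's r in log2(CPM + 1) over 32 sums of a class in a library with at least 50 cells, among 14076 contigs. These sums share libraries and depth, and r is a description. The 10 highest had r from 0.93 to 0.96, and all were far higher in muscle-like cells than elsewhere, with 7.55 to 464 CPM against 0.0125 to 1.03 CPM. Over the 5 muscle-like sums alone, r ran from 0.34 for dd_Smed_v6_23846_0 to 0.95 for dd_Smed_v6_23086_0, so that r over all sums mostly follows the contrast of muscle-like with other cells. None was among the 12 muscle markers, and none carries a name in the table used.

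The closest was dd_Smed_v6_23086_0 (r = 0.96, 143 UMIs in called cells). In muscle-like cells it had 30.9 CPM at 0 hpa, 1.90 at 6 hpa, 16.7 and 16.3 in anterior-facing replicates 1 and 2 of 18 hpa, and 18.6 at 18 hpa posterior-facing. Like *bmp4* it gave a single UMI in the 6 hpa muscle-like cells. Next came dd_Smed_v6_10774_0 (r = 0.95, 209 UMIs), with 38.6, 15.2, 33.9, 17.4 and 30.8 CPM in the same order, which was lower at 6 hpa by less.

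Since the 6 hpa sums took part in the choice, levels at 6 hpa are a description. Here dd_Smed_v6_30210_0 and dd_Smed_v6_18564_0 were at 1 UMI each at 6 hpa. The 2 most abundant, dd_Smed_v6_14068_0 and dd_Smed_v6_31435_0, were at 119 and 15.2 CPM at 6 hpa against 300 to 583 and 76.4 to 225 CPM in the other libraries. Among contigs within 3-fold of the UMIs of *bmp4*, the 5 most alike were dd_Smed_v6_23086_0, dd_Smed_v6_10774_0, dd_Smed_v6_30210_0, dd_Smed_v6_8849_0 and dd_Smed_v6_18389_0, all of them in the first list. Without the 6 hpa library, 4 of the 10 stayed in the list.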

How the data were processed

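The authors counted UMIs per contig and barcode with Cell Ranger (version 4 in the file headers), with Smed_v6 transcripts, positioned by BLAT along the Smes_g4 genome, as the annotation. They deposited these raw counts for 6794880 barcodes in each library, without normalization or selection of cells. Per the labels, CASAVA 1.9 and Seurat were also used. Gene-level names other than *bmp4* and *equinox* come from the part of an annotation table of the study that could be read. That table and another of the study name the same contigs differently, so the names are uncertain.

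Cells were barcodes with no fewer UMIs than 10% of the 99th percentile among the 10000 deepest barcodes and with 200 to 2500 genes (the study's limits). Counts were scaled to 10000 per cell, 2000 variable contigs were scaled within library, and 11 components, 20 neighbours and a resolution of 1 (the study's dimensions and resolution) gave clusters with the Leiden algorithm (leidenalg 0.10.2, Python 3.11.15). A cluster was named after a class when at least 3 and at least 33% of its markers were 2-fold over the median cluster within library (10 CPM added), unless another class had more markers among its top 10 contigs. The list of ciliated markers could not name a class, except in an alternative setting. The minimum of 33% and the condition on the top 10 contigs were chosen after marker profiles and *bmp4* counts of clusters had been seen. Of 77 markers, 42 were recalled from atlases not at hand and are given by contig only, and 2 were absent. *bmp4*, the lists and the tests were chosen with earlier results of these data known.

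UMIs were summed per library over muscle-like and all other cells, and over called cells and barcodes under 100 UMIs, and these sums were compared in edgeR 4.0.16 under R 4.3.3 by its quasi-likelihood test, with TMM factors, the library as a block, the filterByExpr filter and Benjamini-Hochberg adjustment. The block pairs 2 sums of the same library. Standard errors are the absolute log2 fold change over the square root of F. filterByExpr removed *bmp4* and WFIKKN2 from both tests, and they were put back, which departs from the planned filter. The fit was tested on simulated data. Shares after thinning are exact expectations. Sign-flip tests used log2(CPM + 0.5). Contigs named are *bmp4*, the pathway contigs, the 10 most like *bmp4* and the 5 most like it within 3-fold of its UMIs. Libraries were pools of animals and single runs. With the block, p-values measure how the difference within a library varied over 5 libraries of different time points and wounds. Alternatives were DESeq2 1.42.0, other normalization, filter, clustering, naming and cell rules, and leaving out each library. No sequence was used here.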

Additional observations from a re-analysis of the deposited data

Results flagged for a closer look

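Barcodes with over 2500 genes, which the study's limit leaves out, held 23 *bmp4* UMIs in 14 of 4906 barcodes (0.478 CPM, above the 0.0623 CPM that a count of 0 allows over these barcodes). Above, they enter only the totals over all barcodes and the fit that took every barcode of at least 1000 UMIs as a cell. They had a median of 8331 UMIs. The 0 hpa library held 2 of these UMIs and the 6 hpa library 0, while 4 and 5 came from anterior-facing replicates 1 and 2 and 12 from the posterior-facing library at 18 hpa. When these barcodes were clustered with the others, 3 of the 14 were muscle-like, 4 neoblast-like, 1 epidermal lineage-like and 6 unnamed. The muscle markers, not all of which were higher in muscle-like cells, took a median of 0.179% of UMIs in the 14 and 0.0274% in the others of this depth. Whether the 14 held more than 1 cell was not tested.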

How the results depend on the processing

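*bmp4* stayed higher in muscle-like cells than in all other cells, past the threshold, in all 19 alternatives, with log2 fold changes of 4.90 to 9.05 and adjusted p of 2.08e-32 to 2.36e-05 (edgeR or DESeq2). It was 7.41 with no replicate block and 7.16 to 9.05 leaving out each library. The share of *bmp4* cells that were muscle-like moved to 85.0% at a resolution of 2, 57.9% with at least 1000 UMIs per cell, 85.8% with no upper limit on genes, and 58.4% with markers set 2-fold over all other cells, a setting under which cluster 10 stayed unnamed. In called cells against empty droplets, the log2 fold change was reversed to -0.11 with cells of at least 1000 UMIs, was 0.31 with no replicate block, and ran from 0.29 to 0.73 leaving out each library. That comparison called 3398 contigs, 1986 by library size only (1604 higher and 382 lower, against 1751 and 1647, with the median log2 fold change at 0.25 against -0.02) and 432 with no replicate block. Leaving out each library gave 1742 to 3499 calls, the lowest without 0 hpa, with 1908 without 18 hpa posterior-facing and 2175 without 18 hpa anterior-facing replicate 1. At 18 hpa anterior-facing over 0 hpa the ratio was 1.82 in CPM of all called cells. Anterior-facing over posterior-facing was 1.37 with at least 1000 UMIs per cell and 1.36 with markers set over all other cells or without cluster 10, the last chosen after seeing the data. For the 18 hpa anterior-facing wounds, replicate 2 over replicate 1 was 0.545 under 10% mitochondrial UMIs, 0.552 in CPM of all called cells and 1.86 per UMI of the muscle markers. The 6 hpa over 0 hpa ratio stayed under 1 in all 15 alternatives (0.0498 to 0.308). All of these rest on the same single UMI at 6 hpa, so that they are not independent. The interval of the ratio passed 1 with at least 1000 UMIs per cell (upper bound 1.41) and no upper limit on genes (1.87). It also passed 1 under 10% mitochondrial UMIs (1.22), with markers set over all other cells or without cluster 10 (1.10), and per UMI of the muscle markers (1.20). The NOG contig dd_Smed_v6_10386_0 reversed to 3.89 with no minimum share of leading markers, 2.80 without 6 hpa and the unnamed cells (both chosen after seeing the data) and 0.22 with no upper limit on genes, and SKI to -0.38 with no minimum share. WFIKKN2 lost its call without 18 hpa anterior-facing replicate 1 (adjusted p = 0.084, edgeR). Of the 10 contigs most like *bmp4*, 4 stayed with log2(CPM + 10), 6 with Spearman's rho and 4 to 9 leaving out each library. The cause of each change was not tested. With 172 UMIs, depth limits every comparison within muscle-like cells.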
